A study of Mus musculus with 3 samples.

Results

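The MAP kinase cascade and the dual-specificity phosphatases were examined in a CLIP experiment on Tet2, an enzyme that oxidises 5-methylcytosine, in mouse bone marrow derived mast cells. Members were chosen by gene symbol alone: protein-coding mouse genes named Mapk, Map2k, Map3k, Map4k or Dusp followed by a digit. That gave 73 genes of the 21900 protein-coding genes in the RefSeq table, made up of 43 kinases, 24 Dusp genes and 6 adaptors or other genes that share a kinase symbol. The 3 libraries form 1 group of biological replicates from C57BL/6 mice, with no treatment, genotype or control antibody to compare. Marrow cells were cultured for 4 to 6 weeks with IL-3 (10 ng/ml) and stem cell factor (SCF, 5 ng/ml), used at a purity above 97.5% for FcɛRI and c-Kit, and irradiated with ultraviolet light at 400 and then 200 mJ per cm2 before endogenous Tet2 was immunoprecipitated. The labels do not say whether each library came from its own animal, so the spread between libraries may be partly technical.

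MAP kinases are the last step of a relay of protein kinases. MAP4Ks and small GTPases activate MAP3Ks, which phosphorylate MAP2Ks, which in turn phosphorylate a threonine and a tyrosine of the MAP kinases ERK, JNK and p38. The typical MAP kinase phosphatases, which are 10 of the 24 Dusp genes here, remove phosphate from both residues and end the signal. JNK-interacting proteins hold several kinases of one relay together. In mast cells these relays run downstream of the IgE receptor and Kit and control degranulation and cytokine production.

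Each library was deposited as its own list of peaks on mm10, with 3019, 2800 and 2377 peaks in replicates 1, 2 and 3. Heights are the authors' values and are given here in height units, the fixed step of which every deposited height of a library is a whole multiple. The median peak stood at 4 units in each library, and the lowest heights were 2, 2 and 3 units. The sources used here do not say how many reads make up 1 unit, and the depth of each library is unknown. Of 13 mast cell markers listed, Tpsab1 was not found among the gene spans. Among the other 12, 7 carried a peak (58.3%, against 14.1% of all protein-coding genes). These were Kit, Gata2, Cpa3, Hdc, Tpsb2, Slc18a2 and Mitf, while Fcer1a, Ms4a2, Fcer1g, Mcpt4 and Cma1 carried none. Mitf had only 1 peak, of 3 units in replicate 3, and Gata2 and Cpa3 had peaks that also lay in other gene spans. Of 6 markers each, macrophages had 1 with a peak (Adgre1), erythroid or megakaryocytic cells had 1 (Itga2b), and neutrophils and lymphocytes had 0. Lists of 6 genes are too short to set such counts apart from the 14.1% of all protein-coding genes. Adgre1 had 1 peak, of 3 units in replicate 2. Itga2b had 3, 4 and 3 peaks in replicates 1, 2 and 3, and its tallest stood at 4 units in each. RNA levels were not analysed here, so more binding by Tet2, more RNA per cell and more cells with that RNA cannot be told apart.

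Tet2 peaks lay in 22 of the 73 genes (30.1%), against 14.1% of all protein-coding genes with a peak in at least 1 library. The genes included members of every tier, from Map4k4 at the top to the MAP kinases Mapk3 and Mapk14 and the phosphatases Dusp2, Dusp4, Dusp5 and Dusp7. By library, 12 members had a peak in replicate 1 (16.4%, against 8.55% of protein-coding genes), 8 in replicate 2 (11.0%, against 8.04%) and 15 in replicate 3 (20.5%, against 7.02%). Averaged over the libraries the share was 16.0% ± 4.81 (SD, n = 3), and that of all protein-coding genes was 7.87% ± 0.779. In at least 2 libraries, 10 members had a peak (13.7%, against 6.35%). Only 3 members, Map3k6, Map4k4 and Mapk8ip1, had one in every library (4.11%), a share close to the 3.16% of all protein-coding genes. Replicates 1 and 3 had 8 members in common (11.0%), and the other pairs of libraries had 4 each (5.48%). Over all protein-coding genes the order differed, with 883 (4.03%) common to replicates 1 and 3, 990 (4.52%) to replicates 1 and 2 and 904 (4.13%) to replicates 2 and 3. The members were chosen with earlier results of these data known, and no test of the list was run. With only peaks of at least 5 units, 9 members were left (12.3%, against 5.65% of protein-coding genes).

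**Figure D1:**
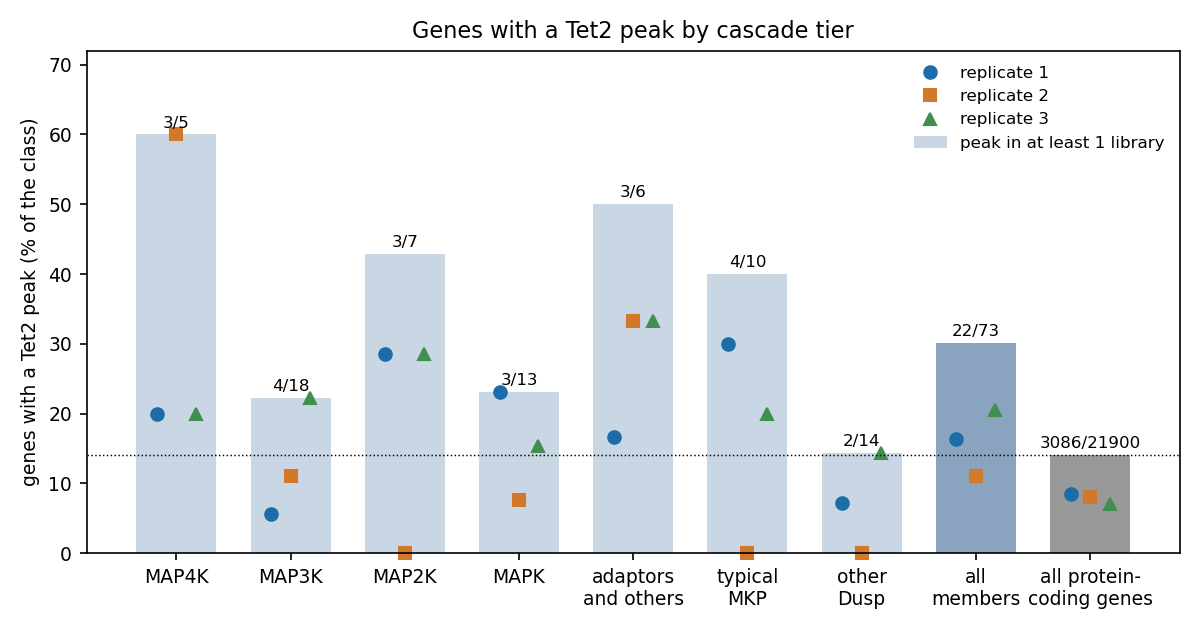
Share of genes with a Tet2 peak (percent of the class, vertical axis) by cascade tier, for all members and for all protein-coding genes. Bars show genes with a peak in at least 1 library, with the count above each bar, and symbols show each replicate. The dotted line is the share of all protein-coding genes (14.1%). No Map2k or Dusp gene had a peak in replicate 2, where 8.04% of all protein-coding genes had one.

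Members with a peak had a median span of 18230 nt, against 23235 nt for the 51 without. The order differed between tiers, with 125409 nt against 55318 nt for MAP4K genes and 57064 nt against 17114 nt for MAP kinase genes, but 31294 nt against 69032 nt for MAP3K genes. Over all protein-coding genes, those with a peak had a median of 29151 nt and those without 15690 nt. Most member peaks were low. The 51 member peaks had a median of 4 units, as did the 7135 peaks in protein-coding genes, and 66.7% stood at 3 or 4 units, against 65.0%. By library the member medians were 3.5, 5 and 3 units in replicates 1, 2 and 3, against 4 in each for protein-coding genes. Without Map3k6, described below, the member median was 3 units and 75.6% of the peaks stood at 3 or 4. Members took 0.596%, 0.464% and 0.841% of the peaks of replicates 1, 2 and 3 and 0.468%, 0.443% and 0.609% of the summed height, a mean of 0.507% ± 0.0894 of the height (SD, n = 3). One gene, Map3k6, accounted for 32.2%, 40.7% and 31.9% of that member height.

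The RefSeq promoter table, which gives 250 bases before and 50 bases after a start, covered 55 of the 73 members. Peaks overlapped 2 of the 70 promoter windows of members (2.86%), those of Map4k3 and Dusp14, against 468 of all 32817 windows (1.43%). These are the member peaks whose letters can be read, and the 250 bases before each start are shown on the gene's strand, 5′ to 3′, with the peak in capitals. Positions are those of GRCm38.p6, which has the same coordinates as mm10. The Map4k3 stretch is chr17:80728026-80728275, minus strand, and its peak of 101 nt (chr17:80728026-80728126, 5 units in replicate 2) ends 1 base before the listed start. The Dusp14 stretch is chr11:84068358-84068607, minus strand, and its peak of 53 nt (chr11:84068438-84068490) covers the bases from 133 to 81 before the start.
Map4k3: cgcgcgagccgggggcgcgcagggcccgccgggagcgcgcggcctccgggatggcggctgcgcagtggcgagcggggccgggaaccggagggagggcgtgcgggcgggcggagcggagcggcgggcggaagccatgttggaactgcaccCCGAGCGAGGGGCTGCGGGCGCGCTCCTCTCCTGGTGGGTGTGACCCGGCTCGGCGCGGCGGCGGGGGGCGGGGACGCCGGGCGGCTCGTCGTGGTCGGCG
Dusp14: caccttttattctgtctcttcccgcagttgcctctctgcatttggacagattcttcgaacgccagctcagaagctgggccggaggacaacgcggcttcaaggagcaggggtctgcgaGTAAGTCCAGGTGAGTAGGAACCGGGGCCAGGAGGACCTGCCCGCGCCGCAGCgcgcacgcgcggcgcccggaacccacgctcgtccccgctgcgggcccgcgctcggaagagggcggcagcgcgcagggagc

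The letters under the Map4k3 peak were 83.2% G or C with 19 CG pairs, or 18.8 per 100 nt. Under the Dusp14 peak they were 69.8% G or C with 4 CG pairs, or 7.55 per 100 nt. Over the 293 peaks of at least 20 nt that lay wholly inside any promoter window, the medians were 73.4% and 11.1 CG pairs per 100 nt, so that Map4k3 was above and Dusp14 below the median on both counts. The 250 bases before a start had medians of 52.4% and 2.4 over all windows and of 63.0% and 6.6 over the windows of members. The peak lists give no strand, and these letters describe the position, not a sequence that Tet2 prefers. The span of each gene goes on beyond its listed start, so both peaks lie inside the annotated genes, and exons were not analysed here.

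MAP4Ks, the Ste20-like kinases at the head of the relay, had peaks in 3 of 5 genes (60%, against 14.1% of protein-coding genes). The tiers are small, so the share of a tier shifts strongly with a single gene. Map4k4, which feeds JNK signalling (gene 26921, chr1:39900902-40026310), held 1 peak in replicate 1, 3 in replicate 2 and 4 in replicate 3. Its tallest peak was 4, 5 and 3 units in replicates 1, 2 and 3. The 8 peaks formed 5 loci, sets of peaks that overlap by at least 1 nt between libraries, and none of the 5 was found in all 3 libraries. A locus at chr1:39901172-39901286 held 4 units in replicate 2 and 3 in replicate 3, and a narrow one at chr1:40000648-40000651 had the same start and end in those libraries, with 5 and 3 units. The locus at chr1:39990153-39990183 was found in replicates 1 and 3, at 4 and 3 units. Map4k4 was therefore present in every library without a position common to all 3. Map4k2, a kinase of the same family (chr19:6340990-6355619), held 3 neighbouring peaks of 3, 4 and 3 units in replicate 2 alone, between 29.7% and 31.4% of the way along its span. Map4k3 had only the peak shown above, and Map4k1 and Map4k5 had none.

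MAP3Ks, the tier that receives stress, cytokine and receptor signals, had peaks in 4 of 18 genes (22.2%, against 14.1% of protein-coding genes). Map3k6, a stress-activated kinase also known as ASK2 (gene 53608, chr4:133237979-133252929), stood apart from all other members by height. Its first locus reached 15, 17 and 16 units in replicates 1, 2 and 3, and its second 14, 16 and 14 units. All 6 peaks were at least 14 units high, while no peak of another member was above 8. The tallest peak of the gene was 16.0 ± 1.00 units (SD, n = 3), and the gene took 1.51, 1.81 and 1.94 thousandths of the summed height of the libraries. In replicate 1, 157 of 3019 peaks (5.2%) were at least as tall as the first peak, with 4.86% in replicate 2 and 4.71% in replicate 3.

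The first Map3k6 locus ran from 133251408 to 133251447 on chromosome 4, with the same start in replicates 1 and 3 and the same end in replicates 1 and 2. The second began at 133251611 in every library and ended at 133251636, 133251613 and 133251623 in replicates 1, 2 and 3. The lowest starts of the loci lay 203 nt apart. Peaks were narrow, with widths of 40, 38 and 11 nt at the first locus and 26, 3 and 13 nt at the second, against a median of 53 nt over all peaks in each library. Both loci lay 89.9% to 91.3% of the way along the span from its start, 1306 to 1516 nt before its far end, and in no other gene span. Whether they fall in an exon was not analysed here.

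**Figure D2:**
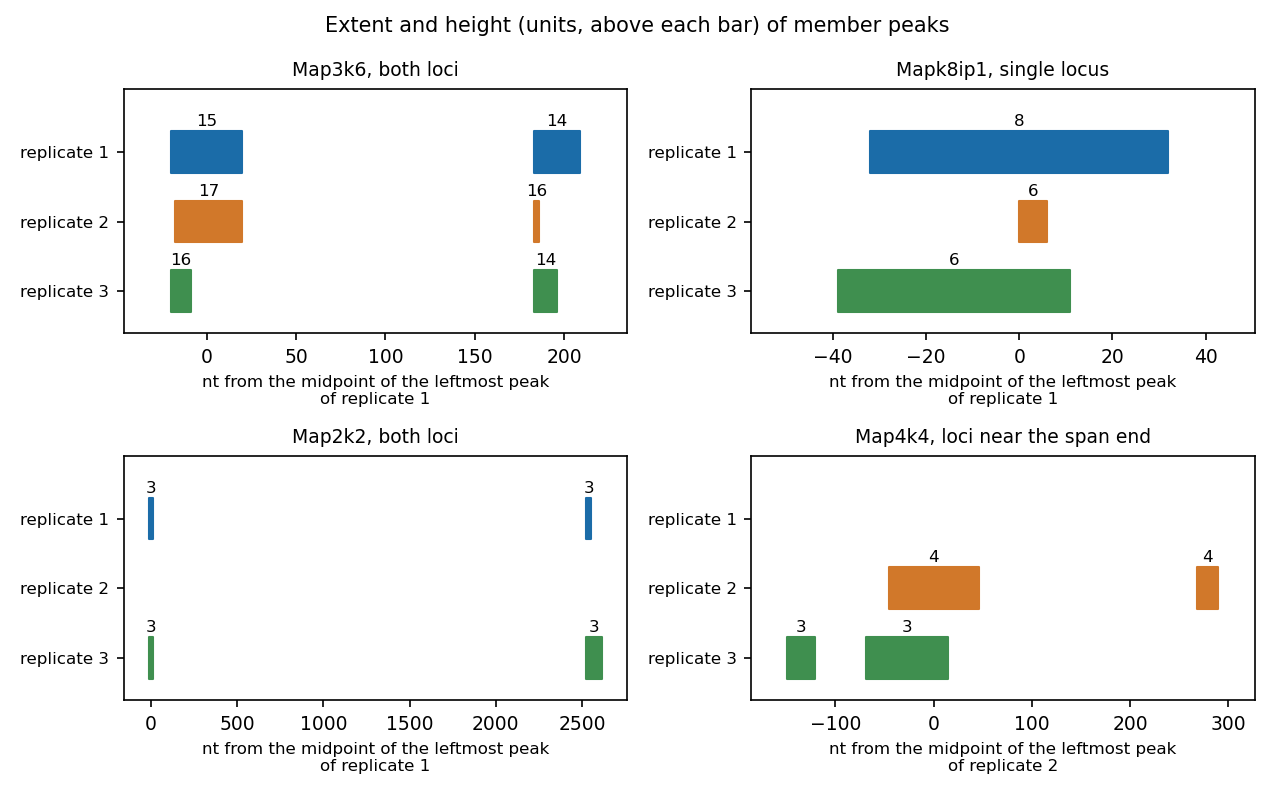
Extent of Tet2 peaks in each library (bars, horizontal axis in nt from the midpoint of the leftmost peak of the replicate named under each panel) with their heights in units above the bars, for Map3k6, Mapk8ip1, Map2k2 and the Map4k4 loci near the left end of the span. The second Map3k6 locus begins at the same base in all 3 libraries, and the Map2k2 loci are in replicates 1 and 3 only.

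The other MAP3K genes had low peaks. Map3k11, the mixed-lineage kinase MLK3 (chr19:5688411-5702865), held a peak of 3 units in replicate 2 and one of 5 units in replicate 3 at different places. The latter also lay in the span of the neighbouring gene Pcnx3 and cannot be credited to one of them. Map3k5, the stress kinase ASK1, held 1 peak of 4 units in replicate 3, 402 nt after its listed start in a span of 208650 nt. Map3k14, the NF-κB-inducing kinase, held 1 peak of 3 units in replicate 3, which also lay in Gm34823. The 14 MAP3K genes without a peak included Map3k1 and the TGF-β activated kinase Map3k7.

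MAP2Ks, which phosphorylate the MAP kinases directly, had peaks in 3 of 7 genes (42.9%, against 14.1% of protein-coding genes). None of these peaks was above 3 units. Map2k2, or MEK2, an activator of ERK (gene 26396, chr10:81105913-81124697), held 2 loci in replicates 1 and 3 and none in replicate 2. The first ended at 81106238 in both libraries and lay 311 and 312 nt after the listed start. The second began at 81108748 in both. Map2k4, an activator of JNK and p38 (chr11:65688244-65788359), held 2 peaks of 3 units in replicate 1, one of them 194 nt after a listed start. Map2k3, an activator of p38, held 1 peak of 3 units in replicate 3. The 4 without a peak included Map2k1, the partner of Map2k2 in the ERK relay, and Map2k6 and Map2k7.

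MAP kinases themselves had peaks in 3 of 13 genes (23.1%, against 14.1% of protein-coding genes), each in exactly 2 libraries. Mapk3, which encodes ERK1 (gene 26417, chr7:126759626-126765816), held peaks near both ends of its short span. One locus began at 126765724 in replicates 1 and 3 with 3 and 4 units, 72 and 66 nt from the right end, and another peak of 3 units lay 133 nt from the left end in replicate 1. Mapk14, which encodes p38α (gene 26416, chr17:28691342-28748405), held a peak of 6 units in replicate 2 and one of 5 units in replicate 1, 249 and 424 nt after the listed start. These peaks did not overlap and were 145 nt apart. A further Mapk14 peak of 3 units lay deep in the span in replicate 1. The JNK genes Mapk8 and Mapk9 were among the 10 MAP kinase genes without a peak.

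The adaptors had the other locus that was found in all 3 libraries. Mapk8ip1, which encodes the JNK scaffold JIP1 (gene 19099, chr2:92383671-92401346), held a single locus of 8, 6 and 6 units in replicates 1, 2 and 3. The tallest peak was 6.67 ± 1.15 units (SD, n = 3), and 14.3%, 25.9% and 22.6% of the peaks of the libraries were at least as tall. The peaks spanned 92386894 to 92386957, 92386926 to 92386931 and 92386887 to 92386936, so that the 6 nt of replicate 2 lay inside the peaks of the other libraries. They were 3240 to 3258 nt from the nearer end of the span. Mapk8ip3, a scaffold that also links to motor proteins, held 1 peak of 5 units in replicate 2, and Mapk8ip2 held 1 of 3 units in replicate 3. The other 3 genes of this class, Map3k7cl among them, had none.

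**Figure D3:**
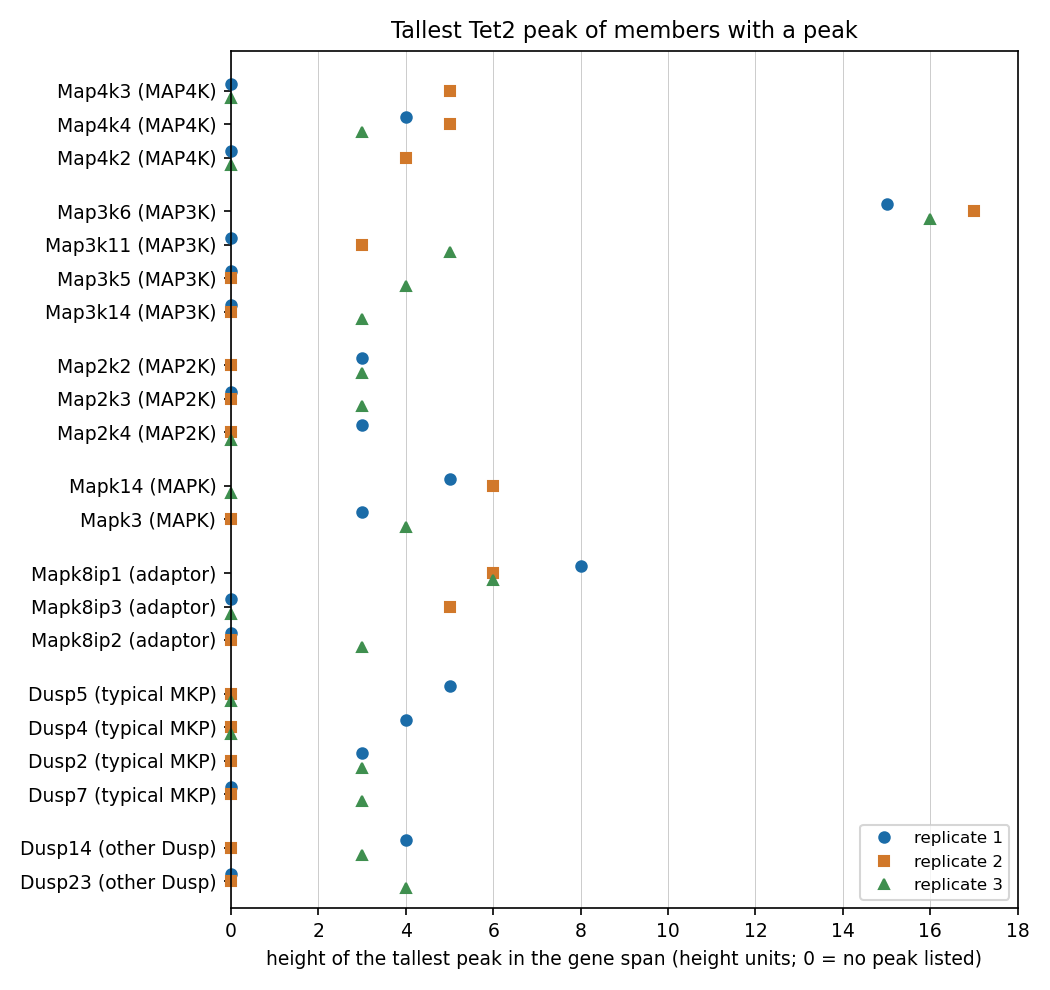
Height of the tallest Tet2 peak (height units, horizontal axis) in the span of members with a peak, by tier, with 1 symbol per replicate and 0 where a library lists no peak. Map3k6 lies at 15 to 17 units, and Mapk8ip1 at 6 to 8.

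Of the 10 typical MAP kinase phosphatases, 4 had a peak (40.0%, against 14.1% of protein-coding genes). Only 1 of them had it in more than 1 library. Dusp2, a nuclear phosphatase of activated leukocytes (gene 13537, chr2:127336159-127338377), held 1 locus of 3 units in replicates 1 and 3, 540 and 533 nt after its listed start. Dusp4, another nuclear phosphatase (chr8:34807610-34819894), held peaks of 4 and 3 units in replicate 1. Dusp5, which acts on ERK in the nucleus (chr19:53529145-53541809), held 1 peak of 5 units in replicate 1, 196 nt after the listed start. Dusp7, which acts on ERK in the cytoplasm (chr9:106368560-106375724), held 1 peak of 3 units in replicate 3, 270 nt after the listed start. Dusp1, Dusp6, Dusp10 and Dusp16 were among the 6 without a peak.

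Of the 14 other Dusp genes, 2 had a peak (14.3%), close to the 14.1% of all protein-coding genes. Dusp14, a small phosphatase without a kinase-binding domain (gene 56405), held the peak shown above in replicates 1 and 3, with the same start and end in both and heights of 4 and 3 units. Dusp23, another small phosphatase (chr1:172630769-172632974), held 1 peak of 4 units in replicate 3, 182 nt after its listed start. None of the 24 Dusp genes had a peak in replicate 2, where 8.04% of protein-coding genes had one. In a list of 24 genes that share comes to only a few. Replicates 1 and 3 had 4 each (16.7%, against 8.55% and 7.02% of protein-coding genes). Dusp peaks therefore rest on replicates 1 and 3 alone, and none was above 5 units.

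Member peaks formed 36 loci, of which 24 (66.7%) were found in 1 library, 9 (25.0%) in 2 and 3 (8.33%) in all 3. The shares over all protein-coding genes were 74.5%, 14.9% and 10.6% of 5242 loci. Of the 9 loci in exactly 2 libraries, 7 were in replicates 1 and 3, and these lay in 6 genes, among them Dusp2, Dusp14, Map2k2, Map4k4 and Mapk3. The remaining 2 loci, both in Map4k4, were in replicates 2 and 3. Over all protein-coding genes, replicates 1 and 3 made up 25.8% of the loci in exactly 2 libraries, the lowest of the 3 pairs. Of the 12 member loci found in more than 1 library, 8 (66.7%) had the same start or the same end in at least 2 libraries, close to the 68.6% of such loci in protein-coding genes.

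Some member peaks lay just inside a gene start, as did peaks of protein-coding genes in general. Of the 22 members with a peak, 17 have a listed start, and their peaks formed 25 loci. Of these, 11 (44.0%) lay within 500 nt of a listed start, against 30.8% of 4427 loci in all protein-coding genes with a listed start. They belonged to 10 genes and stood 9 after the start and 2 before it, against 1241 and 122 of the 4427 loci. Counted as peaks, the difference was smaller, with 39.4% of 33 member peaks within 500 nt, against 32.9% of 6035. Within 500 nt after the start lay 10 of the 33 member peaks, a share close to the 1812 of 6035 in protein-coding genes. The first 10% of the span held 13 of the 25 loci (52.0%, against 32.1%), the last 10% held 2 (8%, against 13.6%). The latter were the second locus of Map3k6 and the locus of Mapk8ip3. The other 5, among them Dusp4, Map4k4, Mapk3 and Mapk8ip1, have no listed start here. Measured to either end of the span, which needs no strand, 15 of all 36 member loci (41.7%) were within 500 nt, against 24.9% in protein-coding genes. A fixed 500 nt covers a larger part of a short span, and spans were not matched. Members with a peak had a median span of 18230 nt, against 29151 nt for all protein-coding genes with a peak. The near-end peaks were low: the tallest within 500 nt of a listed start was that of Mapk14 at 6 units. The taller loci of Map3k6 and Mapk8ip1 were both further inside their genes.

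**Figure D4:**
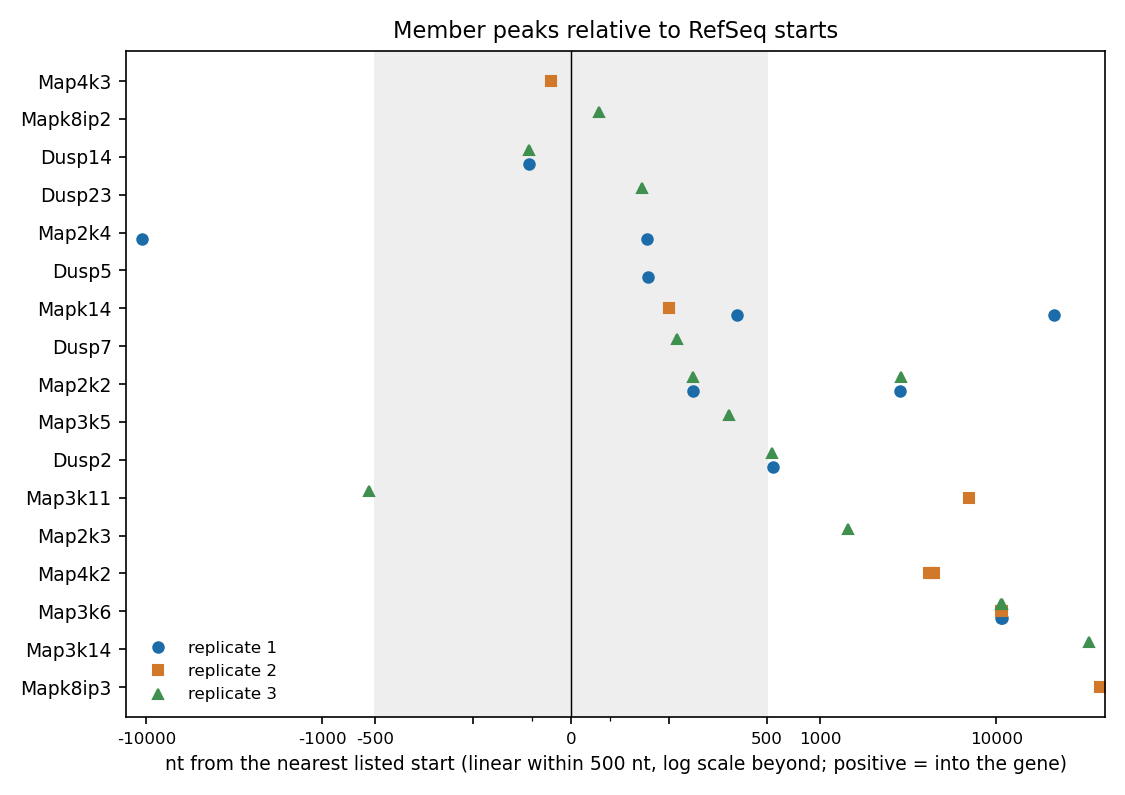
Distance of each of the 33 peaks in the 17 members with a listed start from the nearest listed RefSeq start (nt, horizontal axis, linear within 500 nt and logarithmic beyond, positive into the gene), with 1 symbol shape per replicate. The grey band marks 500 nt on each side and holds 13 of the 33 peaks, while the peaks of Map3k6 lie 10595 to 10806 nt from its start.

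The genes that act around the cascade were taken from 6 fixed lists with 105 genes in all. Of these, 36 had a peak (34.3%, against 14.1% of protein-coding genes) and 9 had one in every library. Over all protein-coding genes, 3.16% had a peak in every library, and each list below is to be read beside these shares. Kinases activated by MAP kinases had the highest share, 8 of 11 genes (72.7%, against 14.1%), with 2 in every library. The chromatin kinase Rps6ka5 reached 0, 23 and 21 units in replicates 1, 2 and 3, and its relative Rps6ka4 reached 9, 6 and 4. Mknk2, which phosphorylates the cap-binding factor eIF4E, reached 0, 3 and 7 units, and Mapkapk2, the p38-activated kinase that stabilises cytokine mRNA, reached 6, 0 and 4. Rps6ka3, a ribosomal S6 kinase activated by ERK, reached 6, 5 and 6.

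Transcription factors targeted by MAP kinases had 9 of 21 genes with a peak (42.9%, against 14.1%), 5 of them in every library. Atf2, a target of JNK and p38, held 1 peak in each library of 19, 25 and 22 units, taller than any member peak. Jund reached 3, 8 and 3 units, Etv6 7, 4 and 4, and Mef2d, a target of p38, 5 in each. Its relative Mef2a reached 0, 4 and 5 units. The list of scaffolds and adaptors outside the symbol rule also holds the Taok and Pak kinases, so its share is not one of scaffolds alone. It had 8 of 21 genes with a peak (38.1%, against 14.1%), 1 in every library. Gab2 reached 0, 6 and 0 units, Tab2 3, 5 and 3 and Arrb1 5, 0 and 0, while the kinase Taok3 reached 5, 3 and 0.

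The list of Ras, Raf and their activators had 4 of 20 genes with a peak (20%, against 14.1%), none in more than 1 library. Ksr1, a scaffold of the ERK relay, stood at 7 units, Shc1 at 5 and Ptpn11 at 4, all in replicate 3. Rasgrp4, a Ras activator of mast cells, stood at 3 in replicate 1. Inhibitors of Ras and Raf had 5 of 17 (29.4%, against 14.1%), 1 of them in every library. Rasa3 reached 5, 6 and 6 units, Spred1 0, 5 and 3, Spred3 4, 3 and 0, and Lztr1 and Rasal3 each 0, 0 and 3. The list of other phosphatases had 2 of 15 (13.3%), close to the 14.1% of all protein-coding genes. Ppm1b stood at 8 units and Ppm1a at 3, both in replicate 1 alone. This list also holds Ppp2r1a, Ppp2r1b and the Styx and Ssh genes, so not all of it encodes phosphatases of MAP kinases. No test between lists was run.

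**Figure D5:**
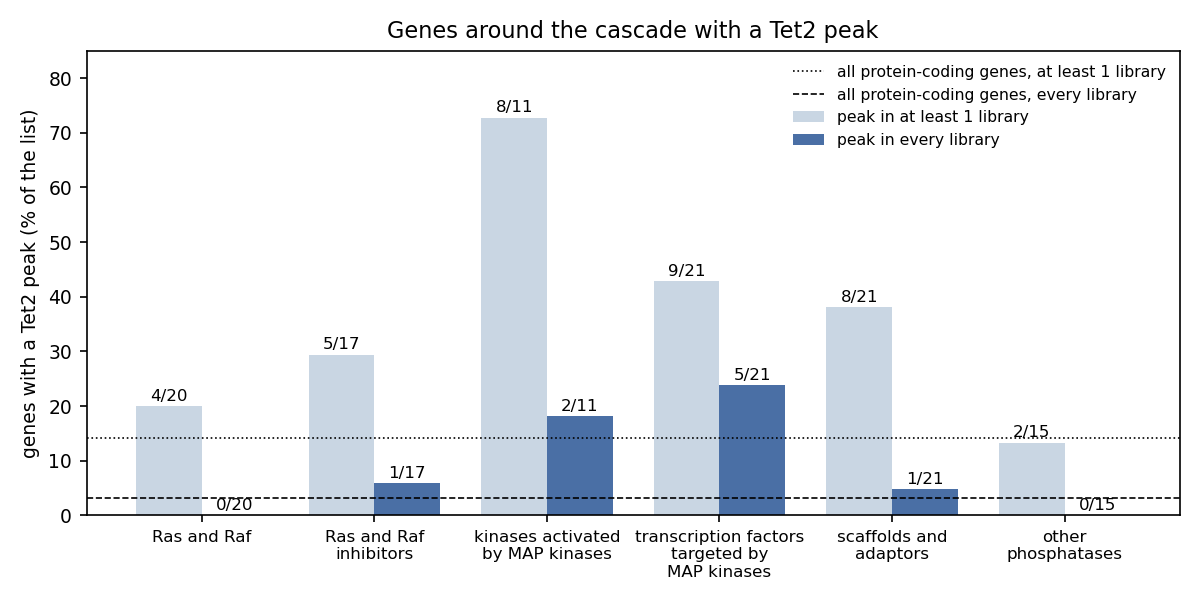
Share of genes with a Tet2 peak (percent of the list, vertical axis) in 6 lists of genes around the cascade, in at least 1 library (light bars) and in every library (dark bars), with counts above the bars. Lines mark the shares of all protein-coding genes (14.1% dotted, 3.16% dashed); the kinases activated by MAP kinases stand highest at 8 of 11 genes.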

How the data were processed

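The data were 3 Tet2 CLIP libraries of 1 group, each with its own deposited peak list. Cutadapt 1.9, STAR 2.4.0i and mm10 are named in the submitters' processing notes, and peaks were called by seeking valleys on both sides, per the labels' protocols. No source used here gives the caller's version or thresholds. Each deposited column of heights sums to 1, so heights are shares of the summed height of the peaks listed for that library. They do not give sequencing depth. Multiplied by 19213, 18270 and 15431 (replicates 1, 2 and 3), every height was whole within 0.05. Starts were read as 0-based and are printed 1-based.

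A peak belonged to every RefSeq GRCm38.p6 gene span (49980 spans) that held its midpoint. Loci joined peaks that overlapped by at least 1 nt. Named genes were every member with a peak, a fixed set of members without one, and the 4 genes per pathway list with the highest peak, with ties for the last place. Mapk genes followed by letters and Map3k7cl were put with the adaptors. Members and lists were chosen with earlier results of these data known, so counts stand beside the background and no test was run. The values of 1 member, which is in the counts, are not reported here. Peak assignment and loci were checked on simulated data. Python 3.11.15, pandas 2.3.3, numpy 2.4.6 and matplotlib 3.10.9 were used.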

Additional observations from a re-analysis of the deposited data

How the results depend on the processing

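Of the 22 members with a peak in at least 1 library, 9 were left with peaks of at least 5 height units, and the share of summed height in members fell from 0.507% to 0.29%. Leaving out 1 library gave 16 to 19 members with a peak (21.9% to 26%), against 10.9% to 12.1% of all protein-coding genes. Members with a peak in every library numbered 3, and 4 to 8 in both remaining libraries when 1 was left out, with 8 without replicate 2. Shared member loci numbered 3, and 3 to 10 when 1 library was left out: 5 without replicate 1 and 10 without replicate 2. For these loci the matching counts over all protein-coding genes are not given here. Over all protein-coding genes, those with a peak in every remaining library went from 693 (3.16%) to 883 (4.03%) without replicate 2, and members from 4.11% to 11.0%, and the cause was not tested. Overlap with the span in place of the midpoint, and spans widened by 1000 nt, added no member. Over all protein-coding genes the share with a peak went from 14.1% to 14.2% and 15.6%. Peaks in exactly 1 gene span left 21 members (28.8%, against 12.7% of protein-coding genes), without Map3k14. Leaving out the adaptors and others left 19. Shared loci stayed at 3 with an overlap of at least 50% of the shorter peak and became 2 when midpoints within 200 nt were joined, since the Map3k6 loci then merged. No paired analysis was possible because the libraries form 1 group. Depth is unknown, and most member peaks stand at the lowest heights listed, so a library without a peak is not shown to lack binding.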

Other observations

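Rps6ka5, which encodes MSK1, a kinase activated by ERK and p38 that phosphorylates histone H3, held peaks of 23 units in replicate 2 and 21 units in replicate 3, and replicate 1 lists no peak in its span (chr12:100548439-100725328). The peaks of replicates 2 and 3 had midpoints 18 nt apart and lay 364 nt or less from the right end of the span. Over the whole series, with peaks joined where midpoints lay within 200 nt, 89 sites reached at least 20 units in 2 or more libraries. Rps6ka5 was the only 1 of the 89 without a peak in the third library. Any site of that height in all 3 libraries is among the 89 and could not lack a peak. Sites that tall in exactly 2 libraries are not counted apart here, so the count does not show how rare the case is. It was singled out after its values were seen, and the cause was not tested.

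Rps6ka4, which encodes the related kinase MSK2, was present in every library with 2, 2 and 3 peaks and a tallest height of 9, 6 and 4 units. Map4k4 had the most peaks of any member, with 8 over the libraries, although its tallest stood at 5 units.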
